A study of Mus musculus with 12 samples.

Results

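The nuclear genes for subunits of the oxidative phosphorylation system were followed in CT26 cells, a mouse tumor cell line derived from a colon carcinoma. The genes were chosen by their symbols (NDUFA, NDUFB, NDUFC, NDUFS, NDUFV, NDUFAB, SDH, UQCR, COX5 to COX8 and ATP5 names, with the NDUFAF assembly factors left out) and by a mean of at least 1 TPM over all libraries. TPM is a transcript's share of a fixed total, corrected for gene length. Of 23636 gene symbols in the table, 84 matched the names and 79 reached the level: 38 of complex I, 4 of complex II, 8 of complex III, 12 of complex IV and 17 of complex V. The genes just inside the limit were ATP5S, with a mean of 4.48 TPM, and NDUFB4C, with 4.90 TPM, and the one just outside was NDUFA4L2, with 0.432 TPM. The other 4 names under the limit are isoforms of complex IV subunits: COX6B2, COX7B2 and COX8C were listed at 0 in every library, and COX8B was above 0 in 1 library.

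Complexes I to IV form the respiratory chain of the inner mitochondrial membrane. Complex I takes electrons from NADH and complex II takes them from succinate, complex III passes them to cytochrome c and complex IV passes them on to oxygen. Complexes I, III and IV pump protons, and complex V, the ATP synthase, uses the proton gradient to make ATP. Complexes I, III, IV and V also hold subunits encoded in mitochondrial DNA, which were not analysed here, while all subunits of complex II are encoded in the nucleus.

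CT26 cells received No treatment, CX3CL1 (a chemokine, recombinant, 2 µg/ml), IFN-γ (a cytokine, 100 ng/ml) or CX3CL1+IFN-γ for 8 hours, with 3 libraries in each of the 4 groups. The labels name IFN-γ only, while the study's results text speaks of IFN-γ and TNF-α, another cytokine, given before CX3CL1. Which description holds for these libraries cannot be told from the labels. All libraries came from this 1 cell line, and the labels call them biological replicates without saying what separated them, so p-values measure the spread between these libraries. CX3CL1 alone, IFN-γ alone and both together were compared with No treatment to ask what each did, and the groups with IFN-γ were compared to ask what CX3CL1 added. The 3 comparisons with No treatment share the same untreated libraries. In each of the 12 libraries the TPM add up to 1000000, so the read depth is unknown, and between 10613 and 10824 symbols had at least 1 TPM. The subunit genes were tested with limma on log2(TPM + 1), together with all 11878 genes of at least 0.2 TPM on average, and a gene was called at a Benjamini-Hochberg adjusted p under 0.05. All 79 passed this filter. Each log2 fold change is a difference of mean log2(TPM + 1), which understates the change of low genes, and is printed with its standard error (SE). A share of the RNA pool cannot tell fewer cells of a type from less RNA per cell.

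The response to IFN-γ was present where the labels place it: the check genes IRF1, GBP2, TAP1 and PSMB9 were called higher with IFN-γ, and all 4 NF-kB check genes (NFKBIA, NFKBIZ, CXCL1 and CCL2) were called higher with CX3CL1. GBP2 was also called higher with CX3CL1, and 3 of the NF-kB check genes with IFN-γ. Epithelial markers were mostly missing. EPCAM was listed at 0 in all libraries, KRT8, KRT19 and CDH1 did not pass 0.364 TPM, KRT18 was between 18.4 and 53.6 TPM and was called lower in both groups with IFN-γ, and the mesenchymal marker VIM was between 1684 and 4831 TPM and was called lower with both agents. Of 7 leukocyte markers, CD3E was listed at 0 throughout, PTPRC stayed at or under 0.0441 TPM, and CD68 was between 7.95 and 27.0 TPM. The summed level of the 7 was between 8.99 and 17.6 TPM without treatment, 8.26 and 22.0 TPM with CX3CL1, 9.57 and 20.3 TPM with IFN-γ, and 10.2 and 27.5 TPM with both. The part of these markers in the results was not tested.

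The subunit genes were among the more abundant transcripts of CT26 cells. Their median level was 189 TPM, against 22.7 TPM for the other genes tested, and 65 of the 79 were at 100 TPM or more. Together they took 3.01% of all TPM in untreated cells. In complex V the levels ran from 4.48 TPM for ATP5S, a factor beside the core enzyme, to 2262 TPM for ATP5K, the small membrane subunit e, which was the highest of all members. Complex IV ran from 9.98 TPM for COX7A1 to 1711 TPM for COX6B1, a subunit on the intermembrane side. Complex I ran from 4.90 TPM for NDUFB4C, which the annotation lists as a processed pseudogene, to 1027 TPM for NDUFA3. In complex III the lowest was UQCRQ at 88.2 TPM and the highest UQCRB at 654 TPM. The 4 genes of complex II were the most even, between 132 TPM for SDHA, the flavoprotein, and 224 TPM for SDHC, a membrane anchor. Many subunit genes have processed pseudogenes of near-identical sequence, and how shared reads were counted is not given in the sources used here, so levels of single genes carry this uncertainty.

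**Figure D1:**
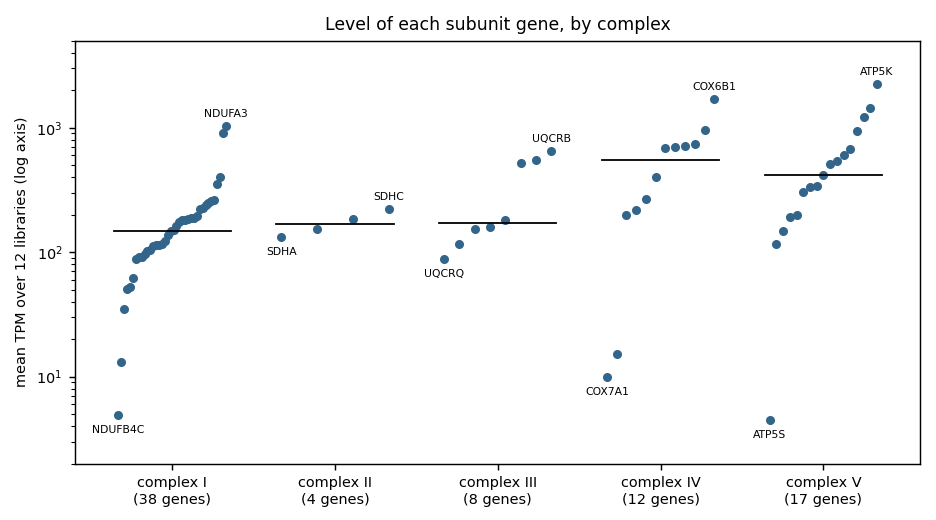
Mean TPM over the 12 libraries of each of the 79 subunit genes (points, log axis), sorted within each complex, with the median of the complex as a line. The median was 548 TPM in complex IV and 418 TPM in complex V, against 148 TPM in complex I.

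Alternative isoforms were mostly those of non-muscle tissue. COX6A1 had a mean of 708 TPM and the heart and muscle form COX6A2 15.2 TPM. COX7A2 had 269.6 TPM and the heart and muscle form COX7A1 9.98 TPM. COX8A was at 746 TPM with COX8B and COX8C at or near 0, and COX6B1 was at 1711 TPM with COX6B2 at 0. COX5A and COX5B, which are different subunits in spite of their names, were at 404 and 692 TPM. COX7A2L, a factor that joins respiratory complexes rather than a core subunit, was at 199.6 TPM. The 3 genes for subunit c of complex V, which make the same mature protein, kept a steady order: in untreated cells ATP5G3 held 71.5% ± 2.01 (SD, n = 3) of their summed TPM, ATP5G2 19.4% ± 0.954 and ATP5G1 9.09% ± 1.11. With CX3CL1+IFN-γ the share of ATP5G3 was 70.5% ± 3.41 (SD, n = 3), a difference smaller than the spread between libraries.

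In untreated cells the summed TPM of the 79 genes was 27434, 32685 and 30239 in replicates 1, 2 and 3. It was 28884, 24418 and 30545 with CX3CL1, 25881, 28672 and 26399 with IFN-γ, and 22665, 25746 and 25170.2 with CX3CL1+IFN-γ. The libraries with both agents lay below every untreated library, while the CX3CL1 and the IFN-γ libraries overlapped the untreated ones. Compared with untreated cells the mean sum was lower by 7.21% with CX3CL1, 10.4% with IFN-γ and 18.6% with both, and these sums have no test. With both agents, complex III was lower by 21.0% and complex I by 20.4%, against 19.3% for complex V, 15.2% for complex IV and 11.9% for complex II. This order rests on where NDUFA4 is counted: without it complex I was lower by 13.2%, and complex IV with it by 21.9%. In complex I, all 3 libraries with both agents (6383, 6743 and 6657 TPM) were under the lowest untreated one (7572 TPM). Complex II overlapped, with 735, 759 and 685 TPM in untreated cells and 560.3, 697 and 662 TPM with both agents.

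**Figure D2:**
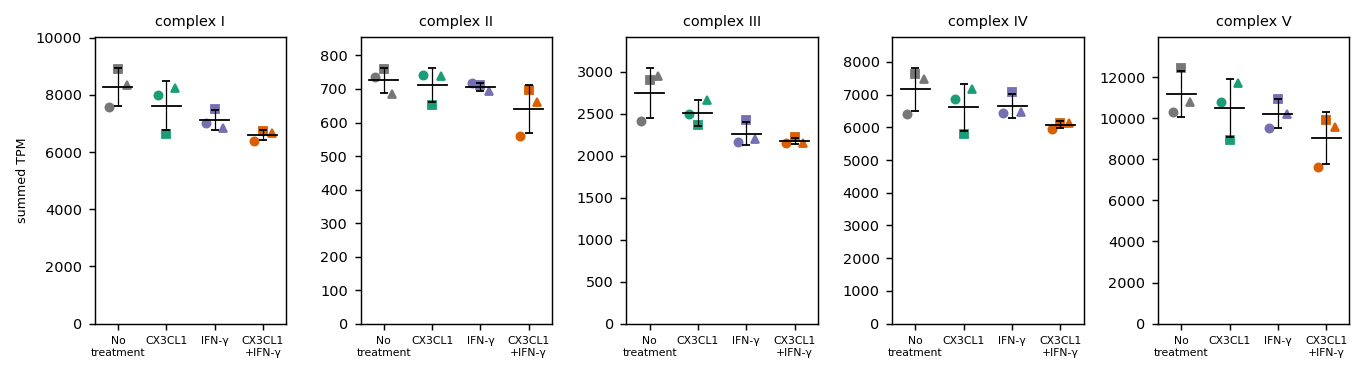
Summed TPM of the subunit genes of each complex in each library (circle, replicate 1, square, replicate 2, triangle, replicate 3), with the group mean and SD (n = 3) in black. The libraries with CX3CL1+IFN-γ lay below all untreated libraries in complexes I, III, IV and V, and overlapped them in complex II.

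A few libraries stood apart from others of their group for these genes. CX3CL1 replicate 2 held the lowest value of its group for 58 of the 79 genes, with a median deviation of -0.19 on the log2 scale from the group mean, against 0.01 for all genes tested. CX3CL1+IFN-γ replicate 1 was the lowest of its group for 53 genes (median deviation -0.11) and untreated replicate 1 for 53 genes (-0.09). In the other direction, IFN-γ replicate 2 was the highest of its group for 65 genes (median deviation 0.08) and untreated replicate 2 for 50 genes (0.09). Without CX3CL1 replicate 2 the mean summed level with CX3CL1 was 1.34% below the untreated mean, and without CX3CL1+IFN-γ replicate 1 that with both agents was 15.5% below it. Leaving out untreated replicate 1 made the differences larger, at 11.2% for CX3CL1, 14.2% for IFN-γ and 22.0% for both. These sums, and the shares of groups that do not overlap without a library, were added after the data had been seen. The libraries left out for them were chosen as low for the members, and none of the high ones was left out. Leaving out a low library of the group compared against raises the share lying below by this choice. Counts of members called and medians without each single library were planned.

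With CX3CL1 alone, 0 of the 79 subunit genes were called in either direction, where 1.95% of all genes tested were called. At an unadjusted p under 0.05 there were 2 of the 79, NDUFA5 and NDUFB4, beside 958 of the 11878 genes tested. The median log2 fold change of the 79 genes was -0.09, against -0.02 for all genes tested, and 73 of them had a negative value. Leaving out CX3CL1 replicate 2 brought this median to -0.02 and leaving out replicate 3 of that group to -0.16. It was -0.05 when untreated replicate 2 was left out and -0.14 when replicate 1 was. The lowest values were those of COX7A1 (-0.58, SE 0.28, adjusted p = 0.693), NDUFB4C (-0.50, SE 0.25) and NDUFB4 (-0.40, SE 0.17), and the highest those of ATP5E (0.09), NDUFB6 (0.08) and ATP5MPL (0.04). For 7 genes the 3 CX3CL1 libraries lay below all untreated libraries, which is 8.86% of the members, where the background over all genes tested was 5.73%. Without CX3CL1 replicate 2 these shares were 15.2% and 18.7%, and without untreated replicate 1 they were 27.8% and 9.19%. Untreated replicate 1 was chosen as low for the members, which itself raises their share.

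IFN-γ alone lowered 5 of the 79 subunit genes, NDUFA4, NDUFB10, UQCRH, UQCRB and COX7A1, and raised 0. This is 6.33% of the members, where 1.94% of all genes tested were called lower and 5.91% were called higher. With the replicate number as a block, which pairs these libraries, 8 members were called, 7 of them lower. That is 10.1% of the members beside 16.2% of all genes, and for the lower calls 8.86% beside 4.85%. The median log2 fold change of the members was -0.09, against 0.03 for all genes tested, with 58 negative and 21 positive values. It was -0.04 without untreated replicate 2 and -0.12 without untreated replicate 1. For 18 members all IFN-γ libraries lay below all untreated libraries (22.8%, background 13.7%), and for 1, UQCRQ, they lay above (1 of 79, background 20.6%). Without untreated replicate 1, chosen as low for the members, the share below was 43.0%, beside 16.3%, and this choice itself raises it. Beside COX7A1 and NDUFA4, the lowest value was that of NDUFB4C (-0.69, adjusted p = 0.12), and the highest were those of COX6A2 (0.83), UQCRQ (0.30) and NDUFS7 (0.19). The number called was 3 without untreated replicate 2, 2 without untreated replicate 3, and 3 without IFN-γ replicate 1 or without IFN-γ replicate 3. Calls over all genes without these libraries are not given here. A loss particular to the members can therefore not be told from a loss over all genes.

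CX3CL1+IFN-γ lowered 6 of the 79 genes against No treatment, NDUFA4, NDUFB10, UQCRH, COX7A1, COX7B and ATP5L, and raised 0. The share of 7.59% stood beside a background of 3.72% called lower and 8.21% called higher over all genes tested. The median log2 fold change was -0.22, against 0.02 for all genes tested, and 75 of the 79 values were negative. For 34 members (43.0%) the libraries with both agents all lay below the untreated ones, where the background was 12.6%. These shares were 53.2% and 19.3% without CX3CL1+IFN-γ replicate 1, and 55.7% and 15.9% without untreated replicate 1. The choice of a low untreated library itself raises the share of the members. The 4 members with a value above 0 were COX6A2 (0.85), UQCRQ (0.08), NDUFS4 (0.07) and NDUFS7 (0.00), and none of these was called. The median was -0.16 without CX3CL1+IFN-γ replicate 1 and -0.27 without untreated replicate 1. Without CX3CL1 replicate 2, which enters the fit only through the shared spread, 16 members were called, all lower, which is 20.3% of the members beside 5.59% of all genes called lower. By complex, the median was -0.30 in complex V, -0.22 in complex IV and -0.20 in complexes I, II and III.

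**Figure D3:**
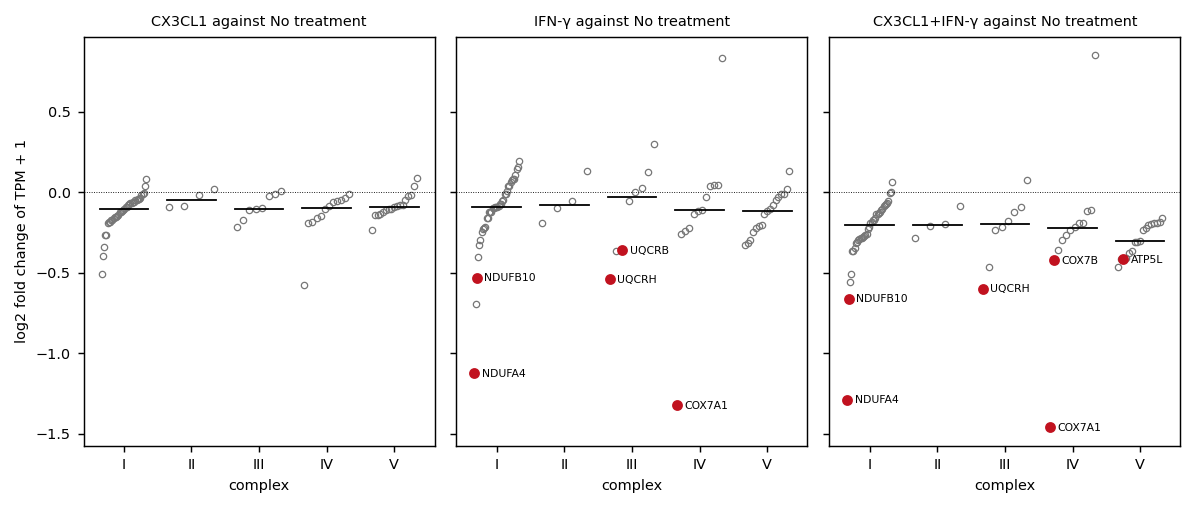
Log2 fold change of TPM + 1 for each subunit gene against No treatment, by complex, for CX3CL1, IFN-γ and CX3CL1+IFN-γ. Filled red points are genes called at an adjusted p under 0.05 (0, 5 and 6 genes), open points were not called, and lines mark the median of each complex; most points lie below 0 with both agents.

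NDUFA4 showed the largest fall among the abundant subunit genes. Its protein was first assigned to complex I and is now placed in complex IV, and it is counted with complex I here by its symbol. The gene lies on chromosome 6 from 11900292 to 11907497 (GRCm38, minus strand). In untreated cells it had 972, 1561 and 1318 TPM, and with CX3CL1 1036, 1200.3 and 1390.3 TPM. With IFN-γ it had 521, 690.0 and 536 TPM, and with CX3CL1+IFN-γ 424, 615 and 526 TPM. All 6 libraries with IFN-γ lay below all 6 without it. With No treatment the mean was 1284 ± 296 TPM (SD, n = 3). It fell to 582 ± 93.5 TPM with IFN-γ, 0.454 times that level, and the log2 fold change was -1.12 (SE 0.19, adjusted p = 0.0023, limma). With both agents it was -1.29 (SE 0.19, adjusted p = 0.00051), and against CX3CL1 alone -1.22 (SE 0.19, adjusted p = 0.0027). CX3CL1 alone gave a log2 fold change of -0.07 (SE 0.19), which was not called. Each of the 3 calls held under all 23 alternative settings.

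AA467197, the mouse gene of NMES1 (C15orf48 in humans), encodes a paralogue of NDUFA4 that can take its place in complex IV. It is not among the 79 because of its symbol, and belongs to a list of subunits that the names leave out. The gene lies on chromosome 2 from 122636986 to 122641191 (GRCm38, plus strand), and its transcript spans the hairpin of miR-147 (122640803 to 122640881 on the same strand, GRCm38.p6, RefSeq). Mature miRNAs were not measured in these libraries. AA467197 had 28.8, 7.81 and 16.9 TPM in untreated cells and 32.4, 19.4 and 28.7 TPM with CX3CL1. It had 231, 65.5 and 184 TPM with IFN-γ and 362, 82.2 and 245 TPM with CX3CL1+IFN-γ, so all 6 libraries with IFN-γ lay above all 6 without it. The log2 fold change was 3.08 with IFN-γ (SE 0.57, adjusted p = 0.0047) and 3.54 with both agents (SE 0.57, adjusted p = 0.0010). Replicate 2 was the lowest of all 4 groups for AA467197 and the highest of 3 groups for NDUFA4.

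As a share of the summed TPM of both paralogues, AA467197 made up 2.88%, 0.498% and 1.26% in the untreated libraries and 3.03%, 1.59% and 2.03% with CX3CL1. The share was 30.7%, 8.66% and 25.5% with IFN-γ, and 46.1%, 11.8% and 31.8% with CX3CL1+IFN-γ. The groups with and without IFN-γ did not overlap. The summed level of both genes was 1302 ± 286 TPM (SD, n = 3) with No treatment, 743 ± 19.5 TPM with IFN-γ and 751 ± 47.5 TPM with both agents, so the TPM gained by AA467197 were fewer than those lost by NDUFA4.

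**Figure D4:**
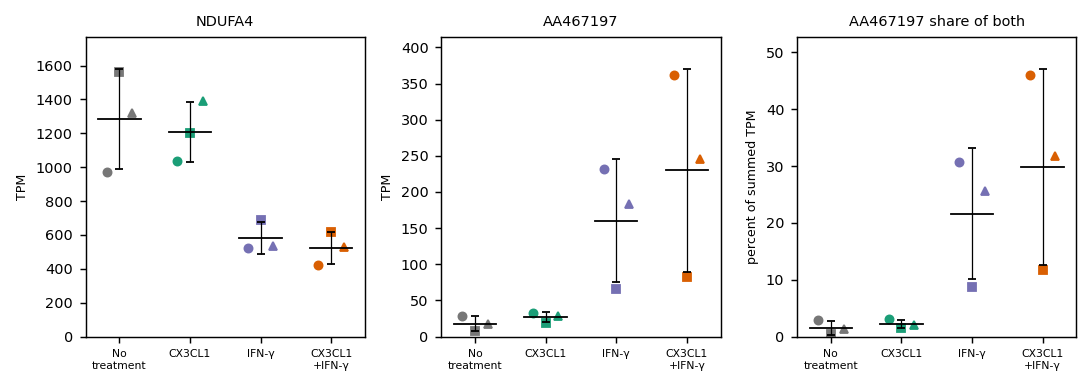
TPM of NDUFA4 and of its paralogue AA467197, and the share of AA467197 in their sum, in each library (circle, replicate 1, square, replicate 2, triangle, replicate 3), with group mean and SD (n = 3). The share was between 0.498% and 3.03% in the 6 libraries without IFN-γ and between 8.66% and 46.1% in the 6 with it.

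COX7A1, the heart and muscle form of a small complex IV subunit, had the lowest log2 fold change of all members in each of the 3 comparisons with No treatment. It lies on chromosome 7 from 30184144 to 30186078. It had 12.9, 17.2 and 20.7 TPM in untreated cells, 9.09, 12.3 and 11.4 TPM with CX3CL1, 6.30, 4.61 and 7.56 TPM with IFN-γ, and 4.45, 9.76 and 3.52 TPM with both agents. The untreated libraries were the highest and did not overlap any treated group. The log2 fold change was -1.32 with IFN-γ (SE 0.28, adjusted p = 0.011), a call lost without untreated replicate 3, and -1.46 with both agents (SE 0.28, adjusted p = 0.0037). Its share of the summed COX7A1 and COX7A2 levels went from 5.42% ± 0.950 (SD, n = 3) to 2.27% ± 0.639 with IFN-γ. COX7A2 itself stood at 295 ± 38.8 TPM (SD, n = 3) with No treatment and 268 ± 14.8 TPM with IFN-γ, and was not called.

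NDUFB10, a subunit of the membrane arm of complex I, lies on chromosome 17 from 24722060 to 24724478. It had 284, 340.4 and 348 TPM in untreated cells and 289.5, 279 and 285 TPM with CX3CL1. It had 211, 250.4 and 211 TPM with IFN-γ and 202, 222 and 189.5 TPM with both agents, all below the 6 libraries without IFN-γ. The log2 fold change was -0.53 with IFN-γ (SE 0.11, adjusted p = 0.0075) and -0.66 with both (SE 0.11, adjusted p = 0.00095), and both calls held under all 23 alternatives.

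Both other called genes of the IFN-γ comparison belong to complex III. UQCRH, the hinge protein beside cytochrome c1, lies on chromosome 4 from 116066965 to 116075071. It had 523, 697 and 726 TPM in untreated cells, 425, 476 and 425 TPM with IFN-γ and 452, 434 and 388 TPM with both agents. Its log2 fold change was -0.54 with IFN-γ (SE 0.13, adjusted p = 0.021) and -0.60 with both (SE 0.13, adjusted p = 0.0077). UQCRB, on chromosome 13 from 66900617 to 66905378, had 687, 754 and 762 TPM in untreated cells, 531, 621 and 568 TPM with IFN-γ and 652, 613 and 608 TPM with both. Its log2 fold change was -0.36 with IFN-γ (SE 0.09, adjusted p = 0.029) and -0.23 with both (SE 0.09, adjusted p = 0.13), so that only the first passed the test. The calls of UQCRH and UQCRB with IFN-γ were lost without untreated replicate 2 or 3 and without IFN-γ replicate 1 or 3, and that of UQCRB also after centring for GC content and length.

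COX7B and ATP5L were called with CX3CL1+IFN-γ against No treatment and with no other comparison. COX7B, a small complex IV subunit on chromosome X from 106015700 to 106022450, had 225, 263 and 255 TPM in untreated cells and 169.7, 193 and 191 TPM with both agents. The log2 fold change was -0.42 (SE 0.10, adjusted p = 0.014), and the call was lost without untreated replicate 2 or 3 and without CX3CL1+IFN-γ replicate 1. ATP5L, the ATP synthase subunit g on chromosome 9 from 44912557 to 44920742, had 691, 706 and 664 TPM in untreated cells and 489, 573 and 488 TPM with both. Its log2 fold change was -0.41 (SE 0.11, adjusted p = 0.023), and the call was lost without any 1 of the 3 untreated replicates, without CX3CL1+IFN-γ replicate 1 or 3, and after centring for GC content and length. Groups did not overlap for either gene. Whether the change with both agents differed from that with IFN-γ alone was tested in the comparison of those groups, where neither gene was called.

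COX6A2, the heart and muscle form of another complex IV subunit, had the highest log2 fold change with IFN-γ and with both agents against No treatment, and with IFN-γ added to CX3CL1. Its libraries were uneven, with 17.6, 3.47 and 14.0 TPM in untreated cells, 23.2, 12.5 and 20.8 TPM with IFN-γ and 26.4, 11.7 and 20.2 TPM with both agents. Replicate 2 was the lowest in all 4 groups, and the groups overlapped. The log2 fold change of 0.83 with IFN-γ (SE 0.52) was not called (adjusted p = 0.38). With the replicate number as a block it was called higher (adjusted p = 0.020).

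**Figure D5:**
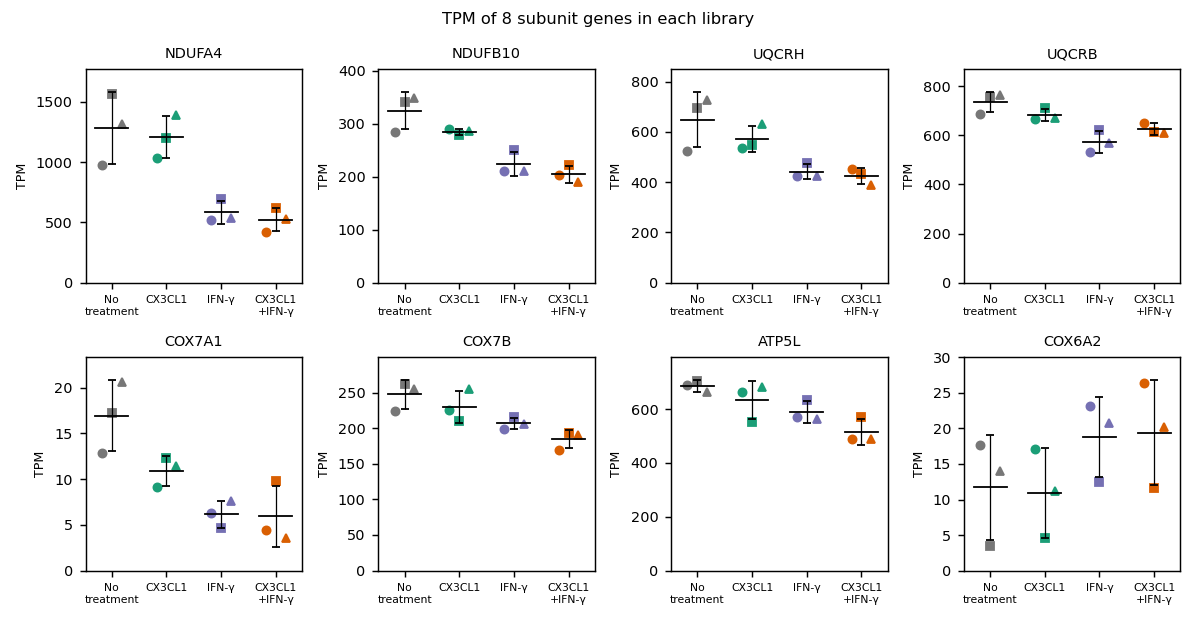
TPM of the 7 subunit genes called in any comparison and of COX6A2 in each library (circle, replicate 1, square, replicate 2, triangle, replicate 3), with group mean and SD (n = 3) and axes from 0. NDUFA4 and NDUFB10 were lower in all 6 libraries with IFN-γ than in the 6 without it.

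Adding CX3CL1 to IFN-γ changed 0 of the 79 subunit genes by the limma test, where 0.362% of all genes tested were called. At an unadjusted p under 0.05 there were 0 members, beside 517 of the 11878 genes tested. The median log2 fold change was -0.15, against 0.00 for all genes tested, with 69 negative values, and it was -0.09 without CX3CL1+IFN-γ replicate 1. After centring for GC content and length it was -0.08. The 167 other genes with transcripts of at most 1000 bases and at least 100 TPM had a median of -0.11. That of cytosolic ribosomal protein genes was -0.11 and that of mitochondrial ones -0.10, so a fall of this kind was not particular to the subunits. For 23 members (29.1%) the libraries with both agents all lay below those with IFN-γ, where the background was 7.74%, and without CX3CL1+IFN-γ replicate 1 the shares were 39.2% and 16.7%. The lowest values were those of ATP5E (-0.49, SE 0.32), NDUFB6 (-0.38, SE 0.21) and UQCR10 (-0.34, SE 0.20), and the highest those of NDUFB4C (0.19), UQCRB (0.12) and NDUFA12 (0.12).

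Adding IFN-γ to CX3CL1 lowered 2 members, NDUFA4 and NDUFB10, and raised 0, which is 2.53% of the members beside 0.935% of all genes called lower and 3.76% called higher. The median log2 fold change was -0.13, against 0.04 for all genes tested, and it was -0.08 without CX3CL1+IFN-γ replicate 1. Of the CX3CL1 libraries, leaving out replicate 3 gave -0.09 and leaving out replicate 2 gave -0.22. NDUFB10 had a log2 fold change of -0.48 (SE 0.11, adjusted p = 0.0215), and its call was lost without CX3CL1 replicate 1 or 3 and without CX3CL1+IFN-γ replicate 1 or 3. COX7A1 (-0.88, adjusted p = 0.106) was also among the lowest values, and COX6A2 (0.86), NDUFS7 (0.15) and NDUFA12 (0.14) were the highest. With the replicate block 7 members were called, 6 of them lower, beside 11.5% of all genes called in either direction and 2.81% called lower. Without CX3CL1 replicate 2 there were 9, all lower (11.4% of the members), beside 1.32% of all genes called lower. For 10 members (12.7%) the groups did not overlap in the lower direction, beside 5.48% of all genes. These shares were 58.2% and 11.4% without CX3CL1 replicate 2, a library chosen as low for the members, which itself raises their share. In the interaction, which asks whether CX3CL1 acted otherwise once IFN-γ was present, 0 members and 0% of all genes were called by limma. At an unadjusted p under 0.05 there were 0 members and 273 of all genes. With the replicate block 0 members were called in the interaction, beside 3 genes higher and 49 lower, 0.438% of all genes. ATP5E (-0.59, SE 0.46) and NDUFB4C (0.69, SE 0.36) had the lowest and highest values.

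The members shared features that the names did not use. Their longest annotated transcripts were short, with a median of 1046 bases against 3270 bases for the other genes tested, and their GC content was close, at 50.2% and 49.6%. Other genes with transcripts of at most 1000 bases and at least 100 TPM, 167 in number, had a median log2 fold change of -0.12 with both agents and -0.01 with IFN-γ, beside -0.22 and -0.09 for the members. After centring each library for GC content and length, the median of the members was -0.22 with both agents and -0.11 with IFN-γ, and 10 and 7 members were called, all lower. These are 12.7% and 8.86% of the members, beside 7.74% and 5.02% of all genes called lower and 17.8% and 11.6% called in either direction.

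Promoters of 64 of the 79 genes, 69 in all, were found by symbol in the RefSeq set on GRCm38.p6, from 250 bases before to 50 bases after the start. They were searched on both strands for several short motifs. Among them were sites of NRF1 and of ETS factors, regulators known to act on many subunit genes. The NRF1 core GCATGCGC was in 14.5% of the members' promoters, against 5.36% of those of the other genes tested and 2.71% of all 32851 promoters. The ETS site CCGGAAG was in 23.2%, against 18.5% and 8.86%. The letters TTCNNNGAA, known as the GAS element, were in 7.25% of the members' promoters, 6.94% of those of the other genes tested and 8.30% of all. UQCRB, a called member, had no matched promoter. Among the other 6, these NRF1 or ETS letters were found in the promoters of ATP5L and UQCRH, which are shown because both genes fell with CX3CL1+IFN-γ, beside that of NDUFA4, which fell under all alternatives and holds neither. Capitals mark the GCATGCGC and CCGGAAG letters or their reverse complement, and each run is 5′ to 3′ on the gene's minus strand. The positions are chr9:44920693-44920992 for ATP5L, chr4:116075021-116075320 for UQCRH and chr6:11907401-11907700 for NDUFA4. A match is a description of letters and not a bound site.
ATP5L: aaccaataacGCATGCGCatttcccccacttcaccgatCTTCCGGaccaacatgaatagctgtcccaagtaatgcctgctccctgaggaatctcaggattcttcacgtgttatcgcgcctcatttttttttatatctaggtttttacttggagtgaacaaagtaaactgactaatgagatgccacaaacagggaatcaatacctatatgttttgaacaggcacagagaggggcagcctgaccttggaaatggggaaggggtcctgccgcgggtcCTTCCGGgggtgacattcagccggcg
UQCRH: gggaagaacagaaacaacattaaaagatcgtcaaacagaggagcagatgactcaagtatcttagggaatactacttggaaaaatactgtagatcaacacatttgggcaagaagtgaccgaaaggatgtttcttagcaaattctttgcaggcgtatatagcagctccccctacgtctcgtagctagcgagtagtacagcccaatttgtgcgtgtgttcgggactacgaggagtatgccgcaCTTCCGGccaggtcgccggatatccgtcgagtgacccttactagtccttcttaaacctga
NDUFA4: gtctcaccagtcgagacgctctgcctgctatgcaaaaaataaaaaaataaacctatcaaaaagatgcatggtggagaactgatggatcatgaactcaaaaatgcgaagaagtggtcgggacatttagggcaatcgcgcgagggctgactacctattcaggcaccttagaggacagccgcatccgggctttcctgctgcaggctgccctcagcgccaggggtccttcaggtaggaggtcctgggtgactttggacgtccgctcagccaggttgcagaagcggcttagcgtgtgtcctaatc

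Subunits that the names leave out were given by their own values. COX4I1, the main form of complex IV subunit 4, was 1025 ± 121 TPM (SD, n = 3) in untreated cells, 1007 ± 68.2 TPM with IFN-γ and 936 ± 84.1 TPM with both agents, and was not called, while its isoform COX4I2 did not pass 0.426 TPM. CYC1, cytochrome c1 of complex III, had 205 ± 21.9 TPM (SD, n = 3) with No treatment and 242 ± 10.8 TPM with IFN-γ, and was not called. USMG5, a small ATP synthase subunit, had 3619 ± 618 TPM (SD, n = 3) with No treatment, above every member, and 2678 ± 244 TPM with IFN-γ, also not called. ATPIF1, the inhibitory factor of ATP synthase, fell with both agents by a log2 fold change of -0.41 (SE 0.12, adjusted p = 0.043), a call that held under 13 of 23 alternatives.

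Among 52 assembly factors, 51 were tested and 2 were called with IFN-γ. COX20, which helps the COX2 subunit of complex IV to mature, went from 206, 186 and 206 TPM to 105, 126 and 108 TPM. Its log2 fold change was -0.82 with IFN-γ (SE 0.10, adjusted p = 0.00023) and -0.85 with both agents (SE 0.10, adjusted p = 0.00011). COX18, which inserts part of the same subunit into the membrane, rose by 0.53 with IFN-γ (SE 0.11, adjusted p = 0.011). COX18 was also called higher with both agents. Of 17 genes for electron carriers and coenzyme Q synthesis, 21 regulators of mitochondrial biogenesis and 17 tested genes of glycolysis, 0 were called in any comparison. In the tricarboxylic acid cycle, 3 of 17 genes fell with both agents, IDH2 (-0.57, SE 0.13, adjusted p = 0.012), FH1 (-0.50, SE 0.13) and IDH3A (-0.43, SE 0.12). IDH3A was also called lower with IFN-γ alone. Of 16 tested genes of mitochondrial carriers and antioxidants, 3 fell with both agents, among them the ATP/ADP carrier SLC25A4 (-0.51, SE 0.11) and SOD1 (-0.41, SE 0.11). PRDX5 (0.76, SE 0.18) and SOD2 (1.03, SE 0.16) rose. With IFN-γ alone SOD1 was called lower and PRDX5 higher. Beside these counts, 1.94% of all genes tested were called lower and 5.91% higher with IFN-γ. With both agents 3.72% were called lower and 8.21% higher.

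Genes of 3 enzymes whose products can inhibit a respiratory complex were all called higher with CX3CL1+IFN-γ. ACOD1 makes itaconate, an inhibitor of complex II, and had 0.132, 0.0599 and 0.0502 TPM in untreated cells, 5.64, 4.99 and 26.0 TPM with IFN-γ and 35.2, 17.8 and 69.0 TPM with both agents. Its log2 fold change was 3.24 with IFN-γ (SE 0.53, adjusted p = 0.0017) and 5.07 with both (SE 0.53, adjusted p = 2.7e-05). NOS2 makes nitric oxide, an inhibitor of complex IV, and had at most 0.0885 TPM in untreated cells, at most 3.69 TPM with either agent and 39.4, 5.15 and 31.9 TPM with both. It was called higher when CX3CL1 was added to IFN-γ (3.28, SE 0.61, adjusted p = 0.044), a call that held under 10 of 23 alternatives. HMOX1, which releases carbon monoxide, had a log2 fold change of 1.65 with both agents (SE 0.34, adjusted p = 0.0060).

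Other large protein complexes are given for comparison. The 77 mitochondrial ribosomal protein genes had a median log2 fold change of 0.08 with IFN-γ, with 4 called higher and 1 lower. With both agents their median was -0.03, with 3 called higher and 3 lower. Over all genes tested, 5.91% were called higher and 1.94% lower with IFN-γ, and 8.21% and 3.72% with both agents. The 79 cytosolic ribosomal protein genes tested had medians of -0.05 and -0.15, with 1 called lower in each comparison. With both agents 6 of these 79 had a log2 fold change above 0, beside 4 of the 79 subunit genes. The 34 tested proteasome genes of the constitutive form had medians of 0.04 and 0.06, with 1 called higher with both agents. Beside these stand -0.09 and -0.22 for the oxidative phosphorylation subunits, and no test was made between the lists.

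Across the 12 libraries the subunit genes mostly varied together, which is a description and rests on libraries that share their preparation. Group means were not removed, so differences between the groups and the low and high libraries named above enter these correlations. NDUFA8 had the highest Pearson correlation with the mean of the other members, 0.97, and COX6A2 (-0.40), NDUFS4 (-0.31) and NDUFA12 (-0.21) the lowest. Outside the members, the 5 genes whose log2(TPM + 1) was most like the members' mean were S100A6 (0.98), TOMM7 (0.97), BLOC1S1 (0.97), FASN (0.96) and TMEM14C (0.95).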

How the data were processed

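The TPM of 12 libraries were deposited by the authors as 1 table of 23636 symbols. Per the labels, the authors isolated RNA with an RNeasy kit and made strand-specific mRNA libraries, and the submitters' processing notes name STAR 2.7.3a, DESeq2 1.22.1 and mm10. How counts became TPM, and how reads shared by pseudogenes were treated, is not given in the sources used here. The CX3CL1 dose and the time came from the study's methods, and the IFN-γ dose from the legend of its RNA heatmap. The values hold no depth and therefore give no counting error, and a value of 0 can be a failed estimate.

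Tests were made in R 4.3.3 with limma 3.58.1 on log2(TPM + 1), all libraries in 1 fit with an intensity trend and no block. Tested were 11878 genes whose mean reached 0.2 TPM, and p-values were adjusted by Benjamini-Hochberg over all of them within each comparison, two-sided. The fit was tested on simulated data. A gene of the IFN-γ check list is not reported here. Gene positions, lengths and GC content came from GENCODE vM21 (GRCm38), found for 99.1% of the genes tested. Named were the members called in any comparison, the 3 highest and 3 lowest log2 fold changes of a comparison, the highest and lowest level of each complex, isoforms, and called genes of the lists. The members and lists were chosen with earlier results of these data known.

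Replicate numbers 1 to 3 recur in each group. Deviations of equally numbered libraries from their group's mean were correlated in untreated and IFN-γ cells (across genes, 0.43, 0.46 and 0.22), in both groups with IFN-γ (0.63, 0.64 and 0.65) and in both groups with CX3CL1 (0.35, 0.35 and 0.43), but not throughout between untreated cells and CX3CL1 (replicate 2, 0.0047) or CX3CL1+IFN-γ (replicate 3, 0.03). The pairing rests on these correlations, since no label says what a number shares.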

Additional observations from a re-analysis of the deposited data

How the results depend on the processing

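With CX3CL1 alone, with CX3CL1 added to IFN-γ and in the interaction, 0 subunit genes were called under any alternative. The numbers called elsewhere moved by over 1.5 times under some. With the replicate number as a block they were 8 for IFN-γ, 14 for CX3CL1+IFN-γ (13 lower) and 7 for IFN-γ added to CX3CL1. The main fit gave 5, 6 and 2. The counts with the block are 10.1%, 17.7% and 8.86% of the members, beside 16.2%, 20.7% and 11.5% of all genes. For the lower calls the shares were 8.86%, 16.5% and 7.59%, beside 4.85%, 7.46% and 2.81%. Centring for GC content and length gave 10 for CX3CL1+IFN-γ, and with the block 19, 25 and 12, where 24.3%, 30.8% and 18.1% of all genes were called, against 24.1%, 31.6% and 15.2% of the members. An adjusted p under 0.1 gave 14 of the 79 members for CX3CL1+IFN-γ, beside 1970 of the 11878 genes tested. For IFN-γ added to CX3CL1 it gave 4 members, beside 881 genes, and fitting only the libraries compared gave 1 member. Leaving out CX3CL1 replicate 2 and CX3CL1+IFN-γ replicate 1 together, chosen after seeing the data, gave 8, 14 and 5. These are 10.1%, 17.7% and 6.33% of the members, beside 14.9%, 13.0% and 3.87% of all genes. Leaving out 1 library gave 2 to 6, 4 to 16 and 1 to 9, and the calls over all genes are not set beside these ranges. The medians stayed below 0 in all 5 comparisons of groups under 23 alternatives, while that of the interaction ran from -0.14 to 0.02. Over all genes, IFN-γ gave 702 higher and 230 lower calls, against 556 and 536 after quantile scaling, and CX3CL1+IFN-γ gave 975 and 442, against 797 and 888. The causes were not tested. TPM hold no depth, which limits what can be said of genes near 0.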
